A study of Mus musculus with 15 samples.

Results

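The hypothalamus of the PGF group was compared with that of the HF group, gene by gene, across 17481 of the 24831 gene names in the deposited table. The genes were those with a mean of at least 1 RPKM (read number set against the length of a transcript and the mapped reads of its library) over the 5 groups of the study. Each gene was given as log2(PGF + 0.5) minus log2(HF + 0.5), so that a positive difference means a higher level in PGF, and the Control group did not enter the difference.

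The series concerns effects of thyroid hormone that reach a later generation, and its samples are total RNA of the hypothalamus, taken on postnatal day 15 from mice of the outbred CD-1 stock and sequenced. PGF and HF held 3 samples each, as did Control, PGM and HM, 15 in all. Both groups shared the strain, the age and the tissue, and the labels used here give them no other treatment, genotype, allele or sex than the codes PGF and HF. The labels used here do not say whether a sample was 1 animal or a pool. The values are the authors' means over the samples of a group. No value per sample entered the comparison, so no difference below has a replicate check, an SD or a p-value, and the sequencing depth is unknown.

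Thyroid hormone is made under the control of thyrotropin from the anterior pituitary, which is in turn driven by thyrotropin-releasing hormone from neurons of the hypothalamus. In the brain the hormone enters cells through transporters, is activated by the deiodinase Dio2, is inactivated by Dio3 and acts on genes through the nuclear receptors Thra and Thrb. It is known for setting the pace of myelination and of neuronal maturation in the weeks after birth.

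The labelled tissue was checked against the transcripts that define it. Hcrt, the precursor of the orexins of the lateral hypothalamus, had 198 RPKM in PGF and 185 in HF, and Pmch, which encodes melanin-concentrating hormone, had 604 and 544. Oxt and Avp, the hormones of the magnocellular neurons, were also abundant in both groups. Transcripts of adjoining tissue were present beside them and differed between the groups, as described below. The sex-linked genes differed too. Ddx3y, a gene of chromosome Y, had 32.0 RPKM in PGF and 15.9 in HF, while Xist, the RNA that coats the inactive X chromosome, had 11.6 in PGF and 35.4 in HF. The level of Ddx3y was 30.4 in PGM, 16.8 in HM and 2.52 in Control. The labels used here give no sex, and a difference in the sexes sampled cannot be told apart from a difference between the groups.

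Across all genes PGF and HF were close. The median difference was -0.05, the lower and upper quartiles were -0.17 and 0.05, and 90% of the genes lay between -0.40 and 0.29. The median level of the kept genes was 18.6 RPKM in PGF and 19.1 in HF. In PGF 36.5% of the genes were higher than in HF at any size and 63.2% were lower. A gene was counted when the groups differed by at least 1.5-fold on the scale of RPKM + 0.5. This gave 311 genes higher in PGF, 1.78% of those compared, and 263 lower, 1.5%. The tail was longer on the higher side, where 81 genes reached 2-fold and 12 reached 4-fold, against 29 and 0 on the lower side. The 12 were the pituitary hormones Prl, Gh, Fshb, Lhb, Pomc, Tshb and Cga, the thyroid hormone carrier Ttr, the thalamic genes Gabrd and Prkcd, the small nucleolar RNA Snora36b and the predicted gene Gm5741.

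**Figure D1:**
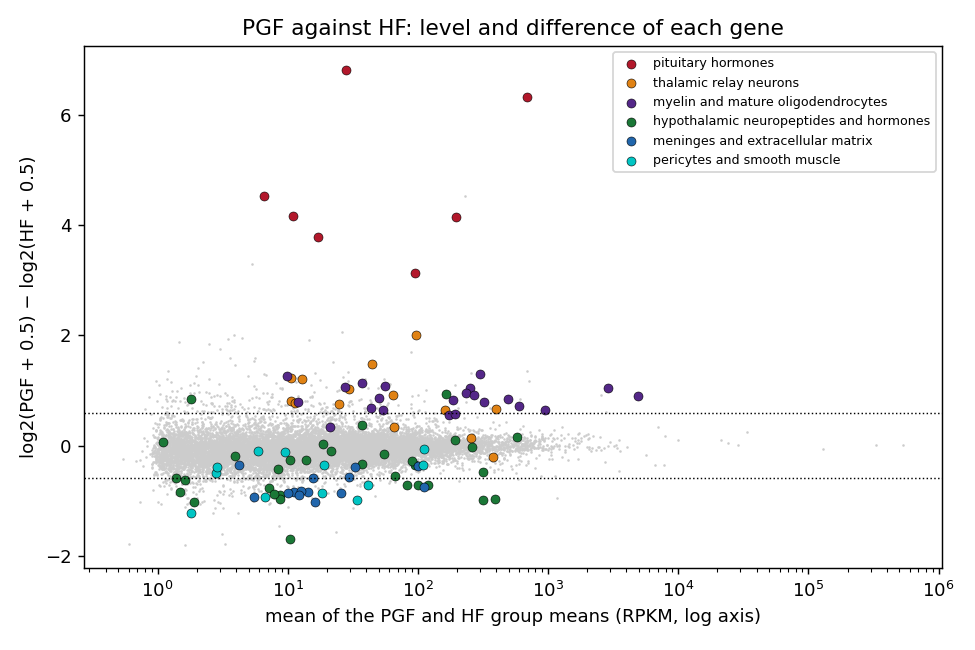
Each grey point is 1 of the 17481 genes, with the mean of the PGF and HF group means in RPKM on a log x axis and the difference of log2(RPKM + 0.5), PGF minus HF, on the y axis; dotted lines mark 1.5-fold and colours mark members of 6 gene lists. The 7 pituitary hormones lie between 3.14 and 6.82, above the other coloured genes, and the meningeal and smooth muscle genes lie below 0.

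At the edge of these rules BB031773 entered with a mean of 1 RPKM and Itga10 stayed out with 0.999. Rffl was counted as higher with a difference of 0.587 and Ctxn3 was not with 0.581. Adamtsl3 was counted as lower with -0.585 and Prss35 was not with -0.584. Of the genes counted, 83 of the 311 higher and 63 of the 263 lower belonged to one of the gene lists described here. In all, 23 counted genes passed the filter on low values only through PGF or HF, whichever was higher.

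The anterior pituitary secretes growth hormone, prolactin, the gonadotropins, thyrotropin and corticotropin, and it hangs below the hypothalamus on a stalk. All 7 genes of these hormones were higher in PGF than in HF, and all 7 passed 1.5-fold, where 1.78% of all genes did. Prl and Fshb passed the filter on low values only through their level in PGF, so their direction was fixed by that filter, while the other 5 did not depend on it. The median difference of the 7 was 4.16, beside -0.05 over all genes, and the summed level was 2025 RPKM in PGF and 58.6 in HF. Gh, growth hormone (chr11:106300271-106301865, GRCm38), had 1363 RPKM in PGF and 16.5 in HF, and 39.8 in Control, 59.7 in PGM and 62.1 in HM. PGF thus stood alone at a high level, 80.4-fold above HF on the scale of RPKM + 0.5, while HF was the lowest of the 5 groups. Prl, prolactin, had 55.9 RPKM in PGF, was listed at 0 in HF, and had 0.90 in Control, 1.75 in PGM and 1.22 in HM. With HF at 0 no fold is given for it.

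The glycoprotein hormones were also highest in PGF. Cga, the alpha subunit that thyrotropin and the gonadotropins share, had 170 RPKM in PGF, 18.9 in HF, 26.2 in Control, 5.60 in PGM and 20.8 in HM, so that PGM was the lowest. Tshb, the beta subunit of thyrotropin, had 32.3 RPKM in PGF and 1.87 in HF, a difference of 3.79. Its level was 2.07 in Control, 2.43 in PGM and 2.92 in HM, so that 4 groups lay close together and PGF apart from them. Lhb and Fshb, the beta subunits of the gonadotropins, had 21.3 and 13.1 RPKM in PGF and 0.72 and 0.09 in HF. Pomc, the precursor of corticotropin in the pituitary and of melanocortins in the arcuate nucleus, had 370 RPKM in PGF and 20.5 in HF, and between 16.1 and 24.3 in the other groups. In bulk tissue, more cells of a type and more RNA per cell cannot be told apart, here and in every list that follows.

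The factors that define the cells of the anterior pituitary had low levels, and most were left out by the filter on low values. Among those left out, Pou1f1, the factor of growth hormone, prolactin and thyrotropin cells, had 1.20 RPKM in PGF and was listed at 0 in HF. Ghrhr, the receptor of growth hormone-releasing hormone, had 1.60 in PGF and was also listed at 0 in HF. Gnrhr, the receptor of gonadotropin-releasing hormone, had 1.20 and 0.02, Lhx3 had 1.36 and 0.29, Tbx19 had 1.39 and 0.51, and Pitx1 had 1.06 and 0.39. Lhx4 had 0.07 in both groups, and Hesx1 was listed at 0 in both. Of 15 genes of pituitary cell identity only 6 were kept, with 0 counted and a median of -0.12, and those named here (Chga, Dlk1, Nkx2-2, Pcsk1 and Six3) are also expressed in the brain. Pituitary hormones were thus high in 1 group mean, that of PGF. The receptors Ghrhr and Gnrhr were low there, though above their level in HF. Whether this came from 1 sample of PGF or from all 3 cannot be seen in a mean, and the part of adhering pituitary in the result was not tested.

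The promoter of Prl is shown because Prl had the largest difference of all genes and its cell type is defined by Pou1f1. The stretch is the 160 bases before the annotated start on the plus strand, chr13:27057410-27057569, from RefSeq on GRCm38.p6. Capitals mark ATGNATA, a short core found in Pou1f1 sites, on either strand, with matches that begin at -148 and -47 from the start.
Prl: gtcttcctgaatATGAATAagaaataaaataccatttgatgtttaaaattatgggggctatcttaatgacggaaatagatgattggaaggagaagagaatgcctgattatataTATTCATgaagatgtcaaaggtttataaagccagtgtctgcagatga
In the 250 bases before the start, these letters occurred on 1 strand or the other in 7.92% of 32851 promoters of the table and in 3.69% of the 13207 promoters of kept genes. They occurred in 4.31% of the promoters of genes counted higher in PGF and in 3.43% of those counted lower. The windows of Fshb, Lhb, Pomc, Tshb and Cga held 0 matches. No promoter of Gh was available, so Gh was not searched. A match describes the letters only.

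Ttr, transthyretin, carries thyroid hormone in plasma and in cerebrospinal fluid, and in the brain it is the leading product of the choroid plexus. It had 440 RPKM in PGF and 18.7 in HF, a difference of 4.52. The level was 106 in PGM, 22.8 in HM and 7.01 in Control, so that both groups with PG in their code lay above the rest. Of 14 choroid plexus genes 10 were kept, with a median of 0.28. Of these, 8 were higher in PGF and 3 were counted, beside 36.5% and 1.78% of all genes. Folr1, a folate receptor of that epithelium, had 5.67 RPKM in PGF and 1.56 in HF, and Aqp1, its water channel, had 2.66 and 1.13. Kl, which encodes klotho, had 6.65 and 5.85, and Clic6 had 5.96 and 6.08, so the list did not differ evenly. Its summed level was 489.99 RPKM in PGF and 58.7 in HF. Ttr made up most of the sum in PGF, with 440 RPKM, but not in HF, with 18.7. Of the members left out by the filter, Kcne2 had 1.30 and 0.34 RPKM and Cldn2 had 1.53 and 0.77, and none of the 14 was at 0 in either group. The part of adhering choroid plexus in the value of Ttr was not tested.

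**Figure D2:**
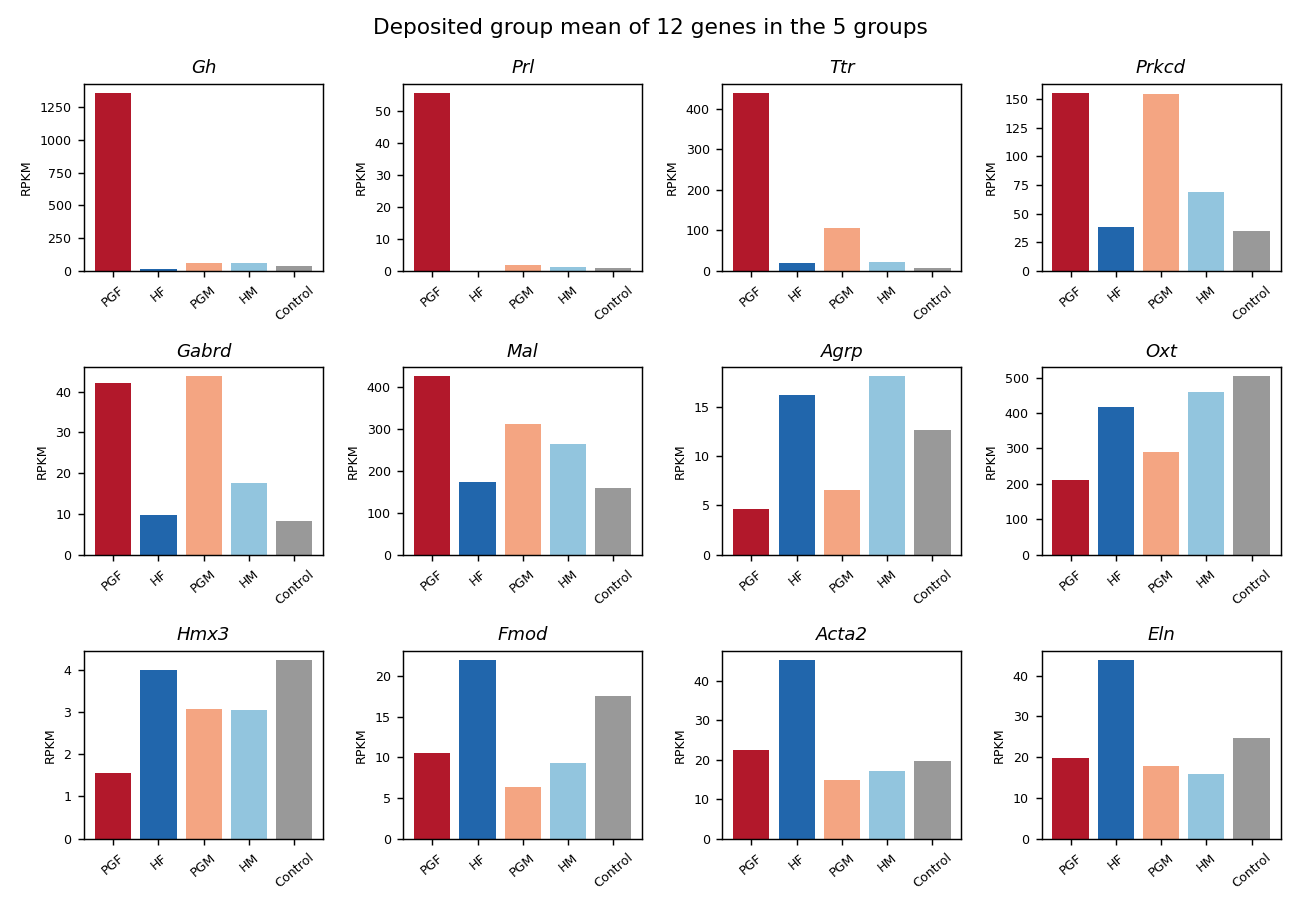
Bars give the deposited group mean in RPKM, on a linear axis from 0, of 12 genes in PGF, HF, PGM, HM and Control, without error bars since the values are means with no spread. Gh and Prl stand high in PGF only, Prkcd and Gabrd in PGF and PGM, and Acta2 and Eln in HF only, while Agrp and Oxt are lowest in PGF.

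The thalamus adjoins the hypothalamus from above, and its relay neurons express a set of genes of their own. Of 14 such genes 13 were higher in PGF and 11 passed 1.5-fold, beside 36.5% and 1.78% of all genes, with a median of 0.80. The summed level of the list was 1814 RPKM in PGF and 1315 in HF, and none of its genes was at 0 in either group. The protein kinase gene Prkcd, a marker of these neurons (chr14:30595354-30626210, GRCm38), had 156 RPKM in PGF and 38.2 in HF, with 154 in PGM, 69.2 in HM and 35.0 in Control. PGF and PGM were level with each other, HF was near Control, and HM lay between them. Ramp3, a receptor accessory protein, had 65.4 RPKM in PGF and 23.1 in HF. The cytoskeletal gene Synpo2 had 15.0 and 6.08, and the troponin gene Tnnt1 had 18.3 and 7.58. Rora, a nuclear receptor that also belongs to the circadian clock, had 84.5 and 44.3 RPKM, a difference of 0.93. The exception was Calb2, calretinin, with 352 RPKM in PGF and 408 in HF.

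Other genes were likewise high in both PGF and PGM. Gabrd, the delta subunit of extrasynaptic GABA receptors, had 42.2 RPKM in PGF, 9.72 in HF, 43.7 in PGM, 17.5 in HM and 8.28 in Control. Its usual partner Gabra4 had 75.3 in PGF and 36.8 in HF. Rab37, a small GTPase of secretory vesicles, had 23.3 in PGF and 5.80 in HF. Slc17a7, a vesicular glutamate transporter, had 55.2 and 23.7. Gabrd and Gabra4 belong to a list of 38 glutamate and GABA receptor subunits with a median of -0.11, and Slc17a7 to one of 14 genes of cortical and hippocampal excitatory neurons with a median of -0.13. Gpr151, a receptor of habenular neurons, was high in PGF only, with 7.41 RPKM beside 1.55 in HF and 2.42 in PGM. The 7 kept habenular genes had a median of 0.09. Striatal projection neuron genes had a median of -0.01 over 15 genes, with 0 counted, and midbrain dopamine genes one of -0.24 over 12, with 0 counted. Among the neuronal regions listed beside the hypothalamus, relay neurons of the thalamus therefore had the largest median, and their part in the other results was not tested.

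Myelin is the membrane that oligodendrocytes wrap around axons, and at this age it is being laid down. All 22 myelin and mature oligodendrocyte genes were higher in PGF, 19 of them by 1.5-fold or more, with a median of 0.86. Over all genes 36.5% were higher and 1.78% passed 1.5-fold. Mbp, myelin basic protein and a known target of thyroid hormone, had 6448 RPKM in PGF and 3439.7 in HF, with 4987 in PGM, 4352 in HM and 3228 in Control. It was highest in PGF, with HF near Control. Mal, a proteolipid of myelin membranes, had 425 RPKM in PGF and 173 in HF, the largest difference of the list at 1.30. Hapln2, a matrix protein of the node of Ranvier, had 14.2 and 5.62, Ermn had 50.9 and 22.9, Opalin 76.5 and 35.8, and Mog 337 and 162.

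The genes of their precursors were near level. Of 11 oligodendrocyte precursor genes 5 were higher and 6 lower in PGF, beside 36.5% and 63.2% of all genes. None was counted, and the median was -0.06. Cspg4, the proteoglycan NG2, had 18.4 RPKM in PGF and 25.2 in HF, and Pdgfra, the receptor that precursors need for growth, had 55.6 and 64.7. Olig1 and Sox10, which both stages express, had 293 and 38.9 RPKM in PGF and 241 and 32.4 in HF. Cryab, a small heat shock protein that oligodendrocytes express, had 71.3 and 33.2. Cholesterol is a main component of myelin. Of 22 genes of its synthesis 20 were higher in PGF, beside 36.5% of all genes. The amounts were small: 0 were counted and the median was 0.15.

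The transcription factors that pattern the hypothalamus were lower in PGF. Of 32 kept, 30 were lower, where 63.2% of all genes were, and 10 passed 1.5-fold, with a median of -0.40. Hmx3, a homeobox factor of hypothalamic neurons, had 1.56 RPKM in PGF and 3.99 in HF, with 3.07 in PGM, 3.06 in HM and 4.23 in Control, so that PGF was the lowest of the 5. Otp and Sim1, both needed for neurons of the paraventricular nucleus, had 3.15 and 2.88 RPKM in PGF and 6.05 and 4.83 in HF. Bsx, a factor of arcuate and dorsomedial neurons, had 3.07 and 5.73. Lhx6 had 13.7 and 22.9, and Fezf1 and Nr5a1, factors of the ventromedial nucleus, had 5.29 and 2.71 in PGF and 8.87 and 4.46 in HF. The 2 exceptions were Lhx9, with 7.49 RPKM in PGF and 4.49 in HF, and Zic1, with 80.0 and 55.0.

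The neuropeptides and hormones of hypothalamic neurons had a like shift. Of 34 kept, 26 were lower in PGF, beside 63.2% of all genes, with a median of -0.39. By 1.5-fold 14 were lower and 3 higher, beside 1.5% and 1.78% of all genes. Agrp, the agouti-related peptide of the arcuate neurons that drive feeding, had 4.64 RPKM in PGF and 16.2 in HF, a difference of -1.70 and the largest on the lower side among named genes. It had 6.58 in PGM, 18.1 in HM and 12.7 in Control, so that the 2 PG groups lay below the other 3. Npy, made by the same neurons, had 62.5 RPKM in PGF and 103 in HF, and Cartpt, a peptide that lowers feeding, had 90.8 and 149.6. Pomc, described above, was the opposite, and its value cannot be read as that of arcuate neurons alone.

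The magnocellular hormones lay near 2-fold. Oxt, oxytocin, had 210.4 RPKM in PGF, 418 in HF, 289 in PGM, 459 in HM and 504 in Control. Avp, vasopressin, had 267 in PGF, 521 in HF, 352 in PGM, 525 in HM and 659 in Control. In both genes PGF was the lowest group and PGM the next. Among the genes of reproduction, Kiss1, kisspeptin, had 1.09 RPKM in PGF and 2.73 in HF. Gnrh1, gonadotropin-releasing hormone, had 5.71 in PGF and 11.7 in HF, and between 9.28 and 9.69 in the other groups. Ghrh, growth hormone-releasing hormone, had 5.96 and 11.4, and Npvf, a peptide of dorsomedial neurons, had 5.36 and 10.3. Crh, corticotropin-releasing hormone, had 9.48 and 11.5, a difference of -0.27, while Sst, somatostatin, was nearly level with 256 and 259.8.

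The 3 higher members were Pomc, Cck and Rln3. Cck, cholecystokinin, had 217 RPKM in PGF and 113 in HF, with 231 in PGM, so that it was high in both PG groups. Rln3, relaxin-3, had 2.45 and 1.15, and it passed the filter only through PGF, so its direction was fixed by that filter. Receptors that read hormones of energy balance were lower in 21 of 24 cases, beside 63.2% of all genes, with a median of -0.27. By 1.5-fold 2 were lower, beside 1.5% of all genes. They were Lepr, the leptin receptor, with 3.10 RPKM in PGF and 5.06 in HF, and Calcr, the calcitonin receptor, with 18.2 and 28.4. Ramp3, also a member, was higher. Of 8 steroid receptor and reproduction genes 1 was counted lower, beside the same 1.5% of all genes. It was the oestrogen receptor Esr1, with 3.93 and 6.18 RPKM.

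The thyroid axis itself was examined gene by gene. Trh, thyrotropin-releasing hormone, had 76.0 RPKM in PGF and 124 in HF, with 87.9 in PGM, 111 in HM and 135 in Control, and it was the only one of 9 genes of its pathway to be counted. Among all genes 1.5% were counted lower, and the pathway's median was -0.23. Trhr, the receptor, had 8.04 and 11.6 RPKM, Trhr2 had 4.99 and 3.51, and Pcsk1, which cuts the precursor, had 32.8 and 38.7.

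Genes of thyroid hormone uptake and conversion lay on both sides. Of 9 kept genes 5 were higher and 4 lower, beside 36.5% and 63.2% of all genes, with a median of 0.08. The 2 counted were Ttr, higher, and Crym, lower, beside 1.78% and 1.5% of all genes. Crym, a cytosolic protein that binds thyroid hormone and is a marker of tanycytes, had 7.96 RPKM in PGF and 13.9 in HF, with 21.2 in PGM, 10.1 in HM and 4.83 in Control. PGF and PGM thus lay on opposite sides of HF and HM for this gene. Dio2, the activating deiodinase, had 23.4 RPKM in PGF and 16.8 in HF, a difference of 0.47, with 17.7 in PGM and 21.6 in HM. Dio3, the inactivating deiodinase, was left out by the filter, with 0.76 and 1.06. The transporter Slco1c1 had 54.8 RPKM in PGF and 47.6 in HF.

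The receptors were close between the groups. Thra had 365 RPKM in PGF and 412 in HF, Thrb had 11.5 and 10.3, and of 14 receptors and coregulators 0 were counted, with a median of -0.11. Of 14 genes known to respond to thyroid hormone in the brain 8 were higher and 6 lower, beside 36.5% and 63.2% of all genes. Their median was 0.06, and the 2 counted, both higher, were Mbp and Sema7a, beside 1.78% of all genes. Sema7a, a semaphorin, had 36.8 RPKM in PGF and 22.3 in HF. Hr, the corepressor hairless, had 31.1 and 24.0, and Klf9, a transcription factor, had 115 and 106. Apart from Mbp, the list held 1 counted gene. AGGTCA, the half-site of 6 letters that thyroid hormone receptors bind, was searched on both strands in the same 250 bases. It occurred in 14.2% of 232 promoters of genes counted higher and in 10.3% of 175 counted lower, beside 10.9% over the kept genes and 14% over all 32851.

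**Figure D3:**
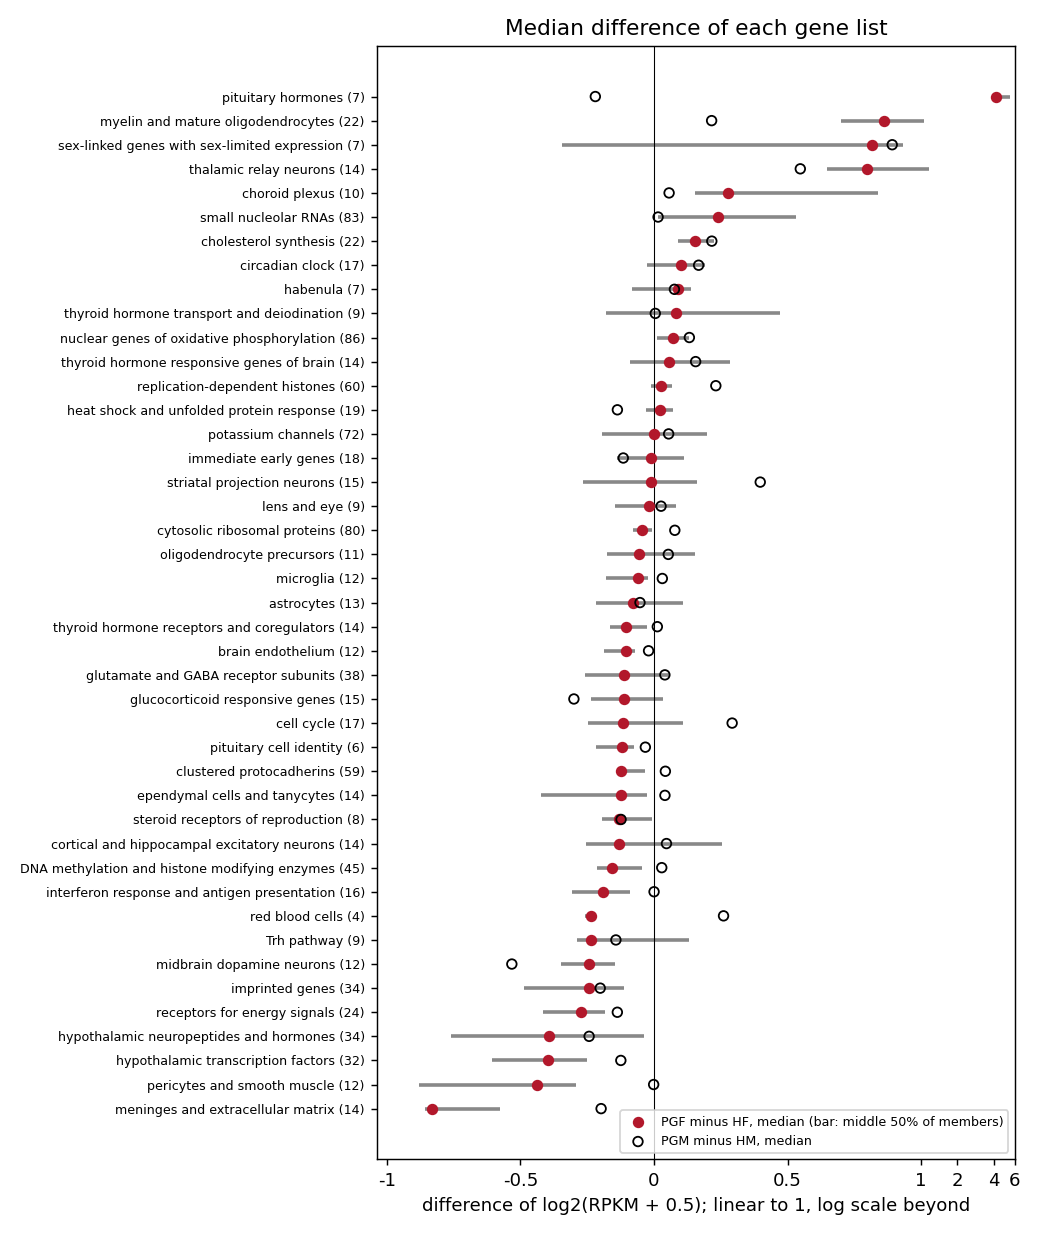
For each gene list the filled point is the median difference PGF minus HF of log2(RPKM + 0.5), the grey bar spans the middle 50% of its kept members, whose number stands in brackets, and the open point is the median of PGM minus HM; the x axis is linear up to 1 and logarithmic beyond. Pituitary hormones (4.16), myelin (0.86), sex-linked genes (0.82) and thalamic relay neurons (0.80) lie to the right and meninges (-0.83) farthest to the left.

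On the lower side the coverings and vessels of the brain led. All 14 genes of the meninges and extracellular matrix were lower in PGF, 10 of them by 1.5-fold, where 1.5% of all genes were, with a median of -0.83. Fmod, fibromodulin, which binds collagen, had 10.6 RPKM in PGF and 22.0 in HF, with 17.6 in Control, 6.31 in PGM and 9.27 in HM. HF and Control were therefore the high groups. Slc22a6, an organic anion transporter, had 3.63 and 7.39, Aebp1 had 8.42 and 16.0, and Ogn, osteoglycin, had 7.83 and 14.4. Igf2, the growth factor that meninges secrete, had 82.9 RPKM in PGF and 139.98 in HF. Genes outside the list had the same direction: Ptgds, which makes prostaglandin D2 in meninges, had 803 and 1544, Crabp2, which binds retinoic acid, had 4.67 and 10.1, and Foxc2, a mesenchymal factor, had 0.85 and 2.40. Clec3b, tetranectin, had 2.30 and 6.02.

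Smooth muscle of vessels was lower in PGF as well. All 12 genes of pericytes and smooth muscle were lower, 5 by 1.5-fold, beside 63.2% and 1.5% of all genes, with a median of -0.44. Acta2, smooth muscle actin, had 22.6 RPKM in PGF and 45.3 in HF, with 19.6 in Control, 14.9 in PGM and 17.2 in HM. HF alone was high, and PGF was near the other groups. The contractile genes Cnn1, Myh11, Tagln and Myl9 had 0.89, 4.43, 12.8 and 31.4 RPKM in PGF and 2.74, 8.86, 23.7 and 51.6 in HF. Cnn1 passed the filter only through HF. The other members were lower by less than 1.5-fold: Rgs5, Kcnj8 and Abcc9 had differences of -0.05, -0.10 and -0.12, and Pdgfrb, Vtn, Des and Anpep, of which Pdgfrb is the receptor that pericytes need, had -0.35, -0.35, -0.39 and -0.49. Brain endothelium had a median of -0.11 over 12 genes, with 0 counted.

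Elastic fibres, which are laid down around larger vessels and in meninges, were added as a list after the values had been seen. All 12 genes were lower in PGF and 7 were counted, beside 63.2% and 1.5% of all genes, with a median of -0.59. Eln, elastin (chr5:134702593-134747323, GRCm38), had 19.9 RPKM in PGF and 43.8 in HF, with 24.7 in Control, 17.9 in PGM and 15.9 in HM, so that HF was again the highest. Mfap5, a microfibril protein, had 0.96 and 2.50, and Lox, which cross-links elastin, had 2.61 and 4.98. Of 4 red blood cell genes all were lower, beside 63.2% of all genes, with 0 counted and a median of -0.23. The summed level was 313 RPKM in PGF and 491 in HF for the meningeal list and 313 and 413 for pericytes and smooth muscle. The part of adhering meninges and vessels in these values was not tested.

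Imprinted genes, which are expressed from 1 parental allele, were lower in 28 of 34 cases, beside 63.2% of all genes. Of the 34, 6 were counted lower, beside 1.5% of all genes, and the median of the list was -0.24. H19 and Igf2, neighbours under joint control, led the list, H19 with 3.45 RPKM in PGF and 7.44 in HF. Igf2 also belongs to the meningeal list. Zdbf2 had 34.4 and 56.4, and Asb4, which hypothalamic neurons express, had 14.9 and 23.6. Of 45 enzymes of DNA methylation and histone modification 38 were lower, again beside 63.2% of all genes, with 0 counted and a median of -0.16. Dnmt3a, which methylates DNA de novo, had 73.1 RPKM in PGF and 92.6 in HF, and Tet1, which oxidises methylcytosine, had 16.4 and 22.4.

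Small nuclear and nucleolar RNAs formed the remaining block on the higher side. H/ACA small nucleolar RNAs guide pseudouridylation and C/D box small nucleolar RNAs guide methylation of ribosomal RNA, and the split into these classes was made after values had been seen. Of 33 kept H/ACA RNAs 30 were higher in PGF and 16 passed 1.5-fold, with a median of 0.52. Over all genes 36.5% were higher and 1.78% passed 1.5-fold. Of 42 C/D box RNAs 26 were higher, 3 counted higher and 2 lower, with a median of 0.12. Of the 2 lower, Snord111 passed the filter only through HF. Snora35 had 23.2 RPKM in PGF and 9.06 in HF, with 5.51 in Control, 10.7 in PGM and 9.97 in HM. Snora3 had 77.2 in PGF and 33.0 in HF, and Snora33 had 40.3 and 17.6, again with PGF alone high. Snora23 had 264.5 and 123 RPKM, and Snora36b, at a low level, had 6.47 and 1.24.

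The 3 following sequences show the 2 letter patterns that give the H/ACA class its name, for members with the larger differences. They are GENCODE M21 transcripts on GRCm38: Snora3 at chr7:109520120-109520251 on the plus strand, Snora33 at chr10:23785347-23785475 on the minus strand and Snora35 at chrX:146994381-146994508 on the plus strand. Capitals mark the ANANNA nearest the middle, the letters of the H box, and the ACA close to the 3′ end.
Snora3: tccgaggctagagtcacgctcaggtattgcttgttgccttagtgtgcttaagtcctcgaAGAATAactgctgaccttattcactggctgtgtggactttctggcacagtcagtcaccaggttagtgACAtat
Snora33: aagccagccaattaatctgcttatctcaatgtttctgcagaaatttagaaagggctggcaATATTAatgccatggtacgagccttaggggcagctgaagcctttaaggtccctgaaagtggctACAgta
Snora35: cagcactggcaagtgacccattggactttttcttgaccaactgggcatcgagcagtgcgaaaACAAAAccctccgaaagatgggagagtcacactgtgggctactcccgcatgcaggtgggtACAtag
On their own strand, both patterns were found in 26 of the 33 kept RNAs named Snora and in 0 of 41 named Snord. The H box letters were found in 30 Snora and also in 19 Snord, and the ACA in 28 Snora and 0 Snord.

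These RNAs lie within host genes, such as those for ribosomal proteins. For 27 of the 33 a host on the same strand was found among the kept genes, 25 hosts in all. The hosts were near level: 5 were higher and 20 lower in PGF, 0 passed 1.5-fold, and their median was -0.06 with a range of -0.42 to 0.15. Rpl27a, host of Snora3, had 447 RPKM in PGF and 472 in HF. Rps12, host of Snora33, had 412 and 453, and Htr2c, host of Snora35, had 70.5 and 66.5. The labels used here do not say how reads were divided between a small RNA and its host.

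Among 12 spliceosomal, RNase P and vault RNAs 9 were higher and 3 were counted, beside 36.5% and 1.78% of all genes. Their median was 0.22. The 3 were Vaultrc5, a vault RNA, with 135 RPKM in PGF and 41.4 in HF, and the RNAs Rnu12 and Rnu11 of the minor spliceosome. Rnu12 had 985 RPKM in PGF, 383 in HF, 191 in Control, 312 in PGM and 374 in HM, and Rnu11 had 994 and 440.2 in PGF and HF. Again PGF alone stood apart. The major spliceosomal RNA Rnu1b2 was level, with 28774 and 28616. The sequence of Rnu12 (GENCODE M21, chr15:83149644-83149794 on the plus strand) is shown with the stretch that pairs with the branch site of minor introns in capitals, since that stretch defines its role.
Rnu12: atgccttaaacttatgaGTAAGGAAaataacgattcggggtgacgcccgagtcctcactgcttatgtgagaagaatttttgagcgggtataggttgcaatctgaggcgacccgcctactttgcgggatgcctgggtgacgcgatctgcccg

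**Figure D4:**
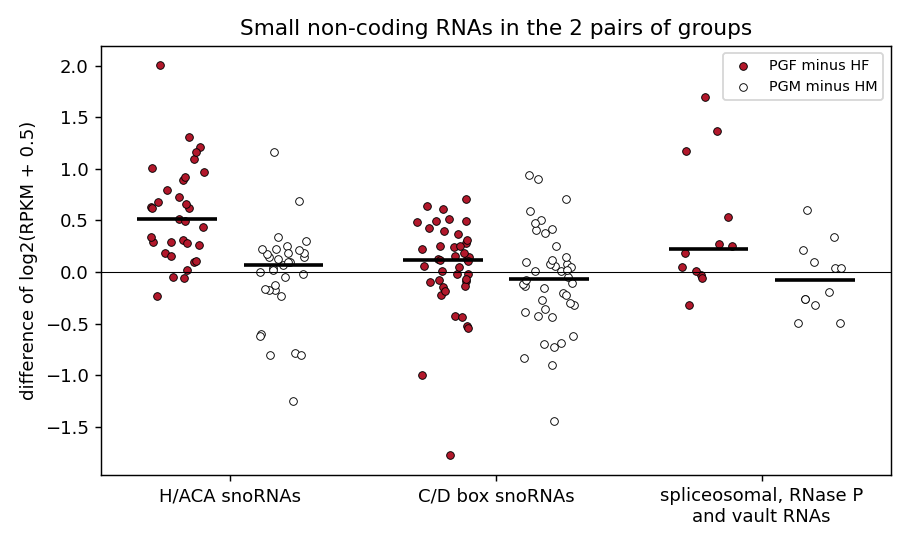
Points are small RNAs of 3 classes, with the difference of log2(RPKM + 0.5) on the y axis, filled for PGF minus HF and open for PGM minus HM, and lines are medians. H/ACA RNAs have a median of 0.52 in PGF minus HF and 0.07 in PGM minus HM.

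A few genes differed outside the lists described above. Fggy, a carbohydrate kinase gene (chr4:95557507-95926939, GRCm38), had 5.84 RPKM in PGF and 1.16 in HF, with 8.60 in Control, 5.21 in PGM and 8.79 in HM. HF alone was low, and the kept neighbours on either side, Jun and Hook1, had differences of 0.12 and -0.06. Glo1, which detoxifies methylglyoxal, had 368 RPKM in PGF and 148 in HF, with 295 in Control, 332 in PGM and 201 in HM. Its neighbours Btbd9 and Glp1r had differences of 0.23 and 0.25. Gstt1, a glutathione transferase (chr10:75783813-75798584, GRCm38), had 6.26 RPKM in PGF and 14.0 in HF, and between 13.7 and 15.3 in the other groups. Its neighbour Gstt3 had 2.97 and 5.76, while Gstt2, next on the other side, had 4.18 and 4.66. Reads shared by these related genes could have been split between them. Epcam, an epithelial adhesion gene that the anterior pituitary also expresses, had 8.70 RPKM in PGF and 2.55 in HF. Bfsp2, a filament gene of the lens, had 1.29 and 4.94. It belongs to a list of 9 kept lens and eye genes with a median of -0.02. Of these, 1 was counted higher and 1 lower, beside 1.78% and 1.5% of all genes.

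General processes had small medians. Of 86 nuclear-encoded genes of the respiratory chain 68 were higher, beside 36.5% of all genes, with a median of 0.07. The 2 counted were near the share of 1.78% over all genes, and 1 of them, Cox8b, passed the filter only through PGF. Of 80 cytosolic ribosomal proteins 64 were lower, beside 63.2% of all genes, with 0 counted and a median of -0.05. Astrocyte genes had a median of -0.08 over 13 genes with 1 counted, microglia one of -0.06 over 12 with 0, and immediate early genes one of -0.01 over 18 with 0. Of 16 interferon and antigen presentation genes 15 were lower, beside the same 63.2%, with a median of -0.19. Of these, 1 was counted lower, beside 1.5% of all genes. On chromosome Y 4 of 4 placed genes were counted higher in PGF. On chromosome X the median difference was -0.10 over 483 genes.

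PGM and HM form a second pair with no sample in common with PGF and HF. Between them 1.02% of the genes were at least 1.5-fold higher in PGM and 0.583% lower, and at any size 60.8% were higher and 38.8% lower, with a median difference of 0.04. Of the 311 genes counted higher in PGF than in HF, PGM was also above HM by 1.5-fold in 79, or 25.4%, and at any size in 276, or 88.7%. In 8 it was below HM by 1.5-fold. Of the 263 counted lower, PGM was below HM by 1.5-fold in 27, or 10.3%, and at any size in 201, or 76.4%, and above it by 1.5-fold in 5. The pairs were thus alike in direction more often than in size.

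The lists differed in how the second pair lay. Thalamic relay neurons had a median of 0.55 in PGM minus HM, beside 0.80 in PGF minus HF, with 6 of 14 counted. Hypothalamic neuropeptides had -0.24 beside -0.39, and Agrp had -1.39 beside -1.70. For myelin the median was 0.22 beside 0.86, and 0 of 22 were counted in PGM against HM, although all 22 were higher. The sex-linked genes were counted in the same directions in both pairs. Meninges had -0.20 beside -0.83, with 11 of 14 lower in PGM and 0 counted. Pituitary hormones had a median of -0.22 beside 4.16, with Cga at -1.80. Pericytes and smooth muscle had 0.00 beside -0.44, and H/ACA RNAs 0.07 beside 0.52. Whether the lists differed between the pairs was not tested.

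**Figure D5:**
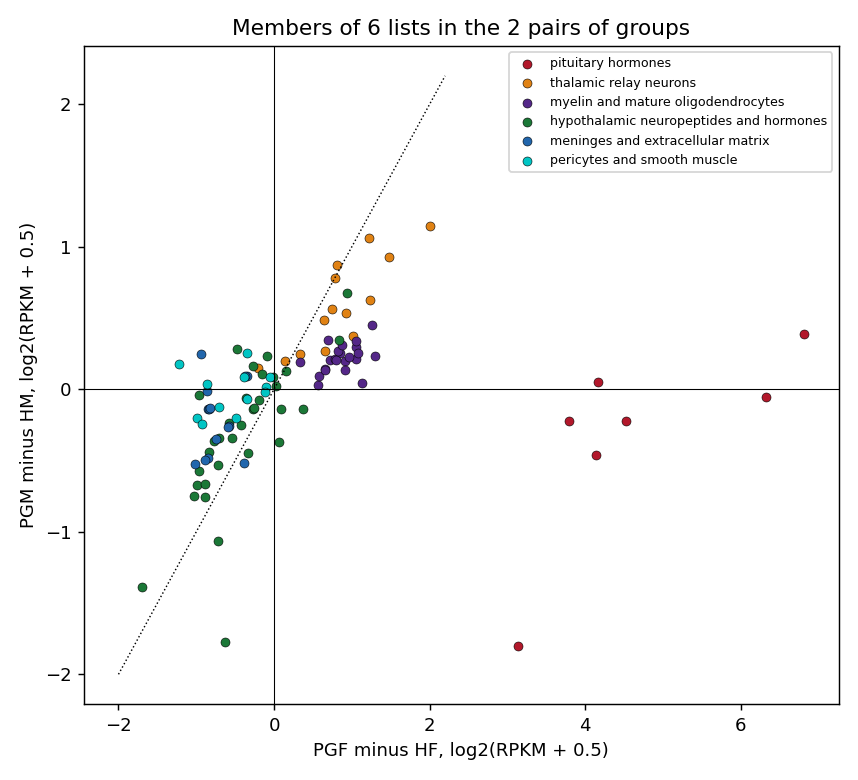
Each point is a member of 1 of 6 lists, with PGF minus HF on the x axis and PGM minus HM on the y axis, both as differences of log2(RPKM + 0.5), and the dotted line marks equal differences. Thalamic genes reach 1.15 on the y axis and myelin genes 0.45, while the pituitary hormones lie far to the right.

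PGF and HF were each set against both PGM and HM, and then against Control. Of the 311 higher genes, PGF was at least 1.5-fold above both in 38, out of 17481 genes compared. Among the 38 were all 7 pituitary hormones, 10 of 33 H/ACA RNAs, 3 of 12 spliceosomal and vault RNAs, Ttr, Folr1, Gpr151 and Epcam. In all 38 PGF was 1.5-fold above Control too. Prl, Fshb and Rln3 passed the filter only through PGF, so for them a high level in PGF alone was largely fixed by that filter. Genes without a list, such as Gm5741 with at most 0.70 RPKM outside PGF, shared this limit. Of the same 311, HF was at least 1.5-fold below both PGM and HM in 35, among them Fggy, Gabrd, Prkcd, Rab37, Mal and Ermn. It was 1.5-fold below Control as well in only 10, Fggy among them, and near Control for Gabrd, Prkcd and Mal. Of the 263 lower genes, HF was at least 1.5-fold above both in 84, out of 17481 genes compared. Among the 84 were 10 of 14 meningeal, 5 of 12 smooth muscle and 6 of 12 elastic fibre genes. HF was 1.5-fold above Control as well in 18, among them Acta2, Cnn1, Myh11, Tagln, Eln and Mfap5. Cnn1 passed the filter only through HF. The lists of elastic fibres and of small RNAs by class were written after values had been seen. PGF was at least 1.5-fold below both PGM and HM in 14 of the 263, among them Hmx3, Gnrh1 and Gstt1. It was 1.5-fold below Control as well in 9, these 3 included. A gene could count for both groups, as Gh and Prl did.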

How the data were processed

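Hypothalamic RNA of CD-1 mice was sequenced in 5 groups of 3, taken from the sample titles. Reads were checked with FastQC and aligned with Novoalign 2.08 to mm10, per the submitters' processing notes. The deposited table holds the authors' mean RPKM of each group, per the file headers, for 49404 transcripts. RPKM depends on what other genes take of a library. The sources used here give neither the counting program, with its treatment of strand and shared reads, nor the depth.

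A stray second header line was dropped, and each gene name took the median of its transcripts. Names that a spreadsheet had turned into date numbers, 26 in all, were kept as written. The filter kept genes whose mean over the 5 groups reached 1 RPKM. Differences used log2(RPKM + 0.5), and at least 1.5-fold was counted. Since only means were used, the planned limma test was not run, and lists are described by counts and medians. A fold understates the difference of low genes.

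The comparison, its members and the 44 gene lists were chosen with earlier results of these data known, and 4 more lists (H/ACA, C/D box, spliceosomal and vault RNAs, elastic fibres) after the values were seen. Of the listed names 5 were matched by synonym and 6 were not found. Named genes were the 15 largest differences in each direction with at least 2 RPKM in PGF or HF and a known function, up to 4 leading and the defining members of each list, and fixed genes of the thyroid axis and hypothalamus. Others were chosen after their values were seen. Some genes that the rule takes are left out of the text. Positions and RNA sequences come from GENCODE M21 (GRCm38, the assembly named mm10) and promoters from RefSeq. Close paralogs, the antisense pair Xist and Tsix, and Kdm5d with its older name Smcy are uncertain as single genes. The calculations were tested on simulated data. Python 3.11.15, numpy 2.4.6, pandas 2.3.3 and matplotlib 3.10.9 were used.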

Additional observations from a re-analysis of the deposited data

How the results depend on the processing

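The alternatives were a pseudocount of 0.1 or of 1, a filter removed or raised to a mean of 3 RPKM, the sum over transcripts or the highest transcript, upper quartile scaling, and a 2-fold threshold. Against 311 genes higher in PGF, a 2-fold threshold gave 81. Against 263 lower, it gave 29, no filter gave 409 and a mean of at least 3 RPKM gave 165. At 1.5-fold the higher genes were 54.2% of those counted, between 47.7% (pseudocount 0.1) and 61% (pseudocount 1) under the other settings, and 57.2% with upper quartile scaling. The medians of the 7 lists that lead the text (pituitary hormones, myelin, thalamic relay neurons, hypothalamic factors and neuropeptides, meninges, smooth muscle) kept their direction under each setting run on them. Of the 44 lists recomputed, 9 medians changed sign under at least 1 setting, among them those of habenula (-0.07 with a mean of at least 3 RPKM), cortical neurons (0.01 with the same), pituitary identity (0.01 with no filter), serotonin neurons (0.17 with the sum over transcripts) and thyroid hormone transport (-0.13 with no filter). No paired analysis was possible because the columns are group means and carry no replicate number, and leaving out each replicate was not run for the same reason. Depth limits low genes to an unknown extent.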

Other observations

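Several lists outside the text had small medians. Of 17 circadian clock genes 11 were higher in PGF, beside 36.5% of all genes, with a median difference of 0.10. The 1 counted was Rora, also a thalamic gene, and Hlf, an output factor of the clock, had 49.4 RPKM in PGF and 35.3 in HF. Potassium channels were split evenly, 36 higher and 36 lower. The 2 counted were Kcng4, with 11.9 and 5.54 RPKM, and Kcna1, a channel of fast-spiking neurons and myelinated axons, with 66.6 and 37.8. Pvalb, parvalbumin, which fast-spiking neurons express, had 84.2 RPKM in PGF, 38.4 in HF, 68.8 in PGM, 59.9 in HM and 30.3 in Control. Over all genes 63.2% were lower in PGF, 1.78% were counted higher and 1.5% were counted lower. Of 59 clustered protocadherins 52 were lower, with 0 counted and a median of -0.12. Of 15 genes that respond to glucocorticoids 11 were lower, with a median of -0.11, and the 1 counted was Plin4, with 1.71 and 2.91 RPKM. Pvalb was chosen after its values were seen.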
